A study of Mus musculus with 22 samples.

Results

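The p53 pathway and apoptosis genes described here are 10 genes chosen by function: the p53 family members Trp53 and Trp63, the p53 targets and regulators Cdkn1a, Mdm2 and Ccng1, and the apoptosis regulators Pmaip1, Bbc3, Bax, Bak1 and Bcl2l1. Of these, 8 had a named probe set among the 15780 named genes of the array, and the levels of Bax and Trp53 were not analysed here. Levels were measured on 22 Affymetrix arrays of male mice aged 2 months. Ts43H males, called trisomic below, have 3 copies of the region of chromosome 17 next to the centromere. Their siblings of the genotype t121/D17, called euploid, served as controls. Each genotype was measured in pre-mid-pachytene spermatocytes (3 arrays), mid-late-pachytene spermatocytes (2 arrays), spermatids (3 arrays) and liver (3 arrays). The germ cells had been sorted by flow cytometry from testicular suspensions, and how many animals stand behind each group is not stated. The p-values measure the spread between these arrays, which may be technical.

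The p53 protein is a transcription factor that responds to DNA damage and other stress. It induces Cdkn1a, an inhibitor of cyclin-dependent kinases that halts the cell cycle, Ccng1, a cyclin that takes part in p53 feedback, and Mdm2, the ubiquitin ligase that in turn degrades p53. It also induces Pmaip1 (Noxa), Bbc3 (Puma) and Bax, which act at the mitochondrial outer membrane. There Bax and Bak1 form the pores that release cytochrome c, and Bcl2l1, which encodes Bcl-xL, holds them in check. In the mammalian testis, apoptosis removes spermatocytes with unsynapsed chromosomes, and Trp63 encodes a p53 relative that guards the germ line.

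Promoter sequences were read from RefSeq (GRCm38.p6) for 8 of the 10 genes, as 13 windows that each run from 250 bases before to 50 bases after a transcription start. No window of Pmaip1 or Trp63 was read, so the matches and their absence below do not cover these genes. A match to the p53 half-site consensus, a palindrome and so read the same on both strands, stood in 5 of the 13 windows and belonged to 5 of the genes (Cdkn1a, Mdm2, Ccng1, Bax and Trp53), against 8.36% of all 32851 windows of the same length. The windows of the 3 matching genes with measured levels are printed 5′ to 3′ on the gene's own strand, with the half-sites in capitals. Cdkn1a lies at chr17:29090729-29091028 on the plus strand, Mdm2 at chr10:117710709-117711008 on the minus strand and Ccng1 at chr11:40755237-40755536 on the minus strand.
Cdkn1a: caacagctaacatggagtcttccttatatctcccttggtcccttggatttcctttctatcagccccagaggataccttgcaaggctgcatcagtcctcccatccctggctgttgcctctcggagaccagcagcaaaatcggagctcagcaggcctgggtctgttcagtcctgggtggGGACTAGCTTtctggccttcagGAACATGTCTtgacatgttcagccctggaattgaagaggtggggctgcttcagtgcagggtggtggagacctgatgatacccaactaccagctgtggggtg
Mdm2: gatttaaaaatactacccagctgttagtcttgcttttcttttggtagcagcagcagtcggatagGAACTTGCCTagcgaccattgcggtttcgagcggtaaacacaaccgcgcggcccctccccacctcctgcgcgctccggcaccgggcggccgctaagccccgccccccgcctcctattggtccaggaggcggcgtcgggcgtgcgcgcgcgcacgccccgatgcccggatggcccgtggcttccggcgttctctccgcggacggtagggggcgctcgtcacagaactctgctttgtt
Ccng1: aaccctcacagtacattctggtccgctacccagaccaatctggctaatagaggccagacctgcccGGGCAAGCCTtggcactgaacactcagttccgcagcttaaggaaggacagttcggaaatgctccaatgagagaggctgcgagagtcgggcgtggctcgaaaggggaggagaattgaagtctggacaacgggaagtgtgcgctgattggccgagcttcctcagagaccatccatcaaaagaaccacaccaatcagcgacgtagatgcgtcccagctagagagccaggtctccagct
The upstream Cdkn1a window held 2 matches, which begin 73 and 51 bases before the start, and a window at the second Cdkn1a start held none. The single match began 186 bases before the start in Mdm2 and 185 bases before it in Ccng1. No window of Bbc3, Bak1 or Bcl2l1 held a match, which says only that these letters are not in those bases.

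Values are GCRMA levels on the log2 scale, so that a difference of 1 is a doubling. They ran from 0.90 to 16.75 over the table, and anything below 3 is taken as the background range. In liver 6 hepatocyte markers had array medians of 16.10 to 16.23, while 5 or 6 of the 6 were in the background range in each germ cell group. In the germ cell fractions, each stage marker list given next set a single fraction apart, while the other fractions overlapped. Early meiotic prophase markers had array medians of 12.40 to 12.93 in pre-mid-pachytene, 9.48 to 9.95 in mid-late-pachytene and 9.16 to 10.15 in spermatid arrays. For pachytene spermatocyte markers they were 7.85 to 8.45, 13.26 to 13.53 and 12.999 to 13.43 in the same order. Round spermatid markers gave 9.43 to 10.90, 9.18 to 11.03 and 13.27 to 13.90. Elongating spermatid markers had array medians of 13.71 to 14.58 in the pre-mid-pachytene fraction, 10.14 to 11.49 in the mid-late-pachytene fraction and 14.12 to 14.84 in spermatids. For some lists the linear intensities were summed per array and the log2 of the sum taken, called the log2 sum. The strongest markers carry such a sum. For 6 Sertoli cell markers it was 13.01 to 13.71 in pre-mid-pachytene, 8.67 to 9.499 in mid-late-pachytene and 7.84 to 10.27 in spermatid arrays. Their array medians were closer, at 3.83 to 4.25, 3.14 to 3.26 and 3.15 to 3.63. Gata4 and Fshr were in the background range in each group. In liver the log2 sum was 15.57 to 15.75, with Wt1, Cldn11, Gata4 and Fshr in the background range. A gene was tested between genotypes where its mean in the cell type was at least 4, and between cell types where the average of both euploid means was at least 4. Tests used limma on all 22 arrays with Benjamini-Hochberg adjustment over all tested genes, and a gene passed at an adjusted p below 0.05. The extra segment was taken as the first 30 Mb of chromosome 17, since its breakpoint is not given in the labels.

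Across cell types the measured genes fell into different patterns of level. In euploid males, Pmaip1 was highest in pre-mid-pachytene spermatocytes and Mdm2 was high in all 3 germ cell types, whereas Cdkn1a, Bbc3 and Ccng1 were highest in liver. Bak1 and Trp63 stayed in the background range on every array. Of 27 comparisons of these genes between euploid cell types 21 passed, and most genes of the array differed in the same comparisons. Against liver 5 of 5 tested members passed in pre-mid-pachytene cells (86.4% of all tested genes), 5 of 5 in mid-late-pachytene cells (88.6%) and 4 of 4 in spermatids (90.8%). Between germ cell types 3 of 5 passed from pre-mid-pachytene to mid-late-pachytene cells (78.5%), 3 of 5 from pre-mid-pachytene cells to spermatids (84.7%) and 1 of 3 from mid-late-pachytene cells to spermatids (64.4%). In 16 of the 27 comparisons both cell types had a mean of at least 4, and 12 of these passed. In the other 11 the mean of 1 cell type lay below 4, and the other cell type carried the gene past the filter. Of these 9 passed, but such calls say little beyond that choice and their sizes are not given intervals. No level is compared between genes, because each probe set has its own affinity.

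**Figure D1:**
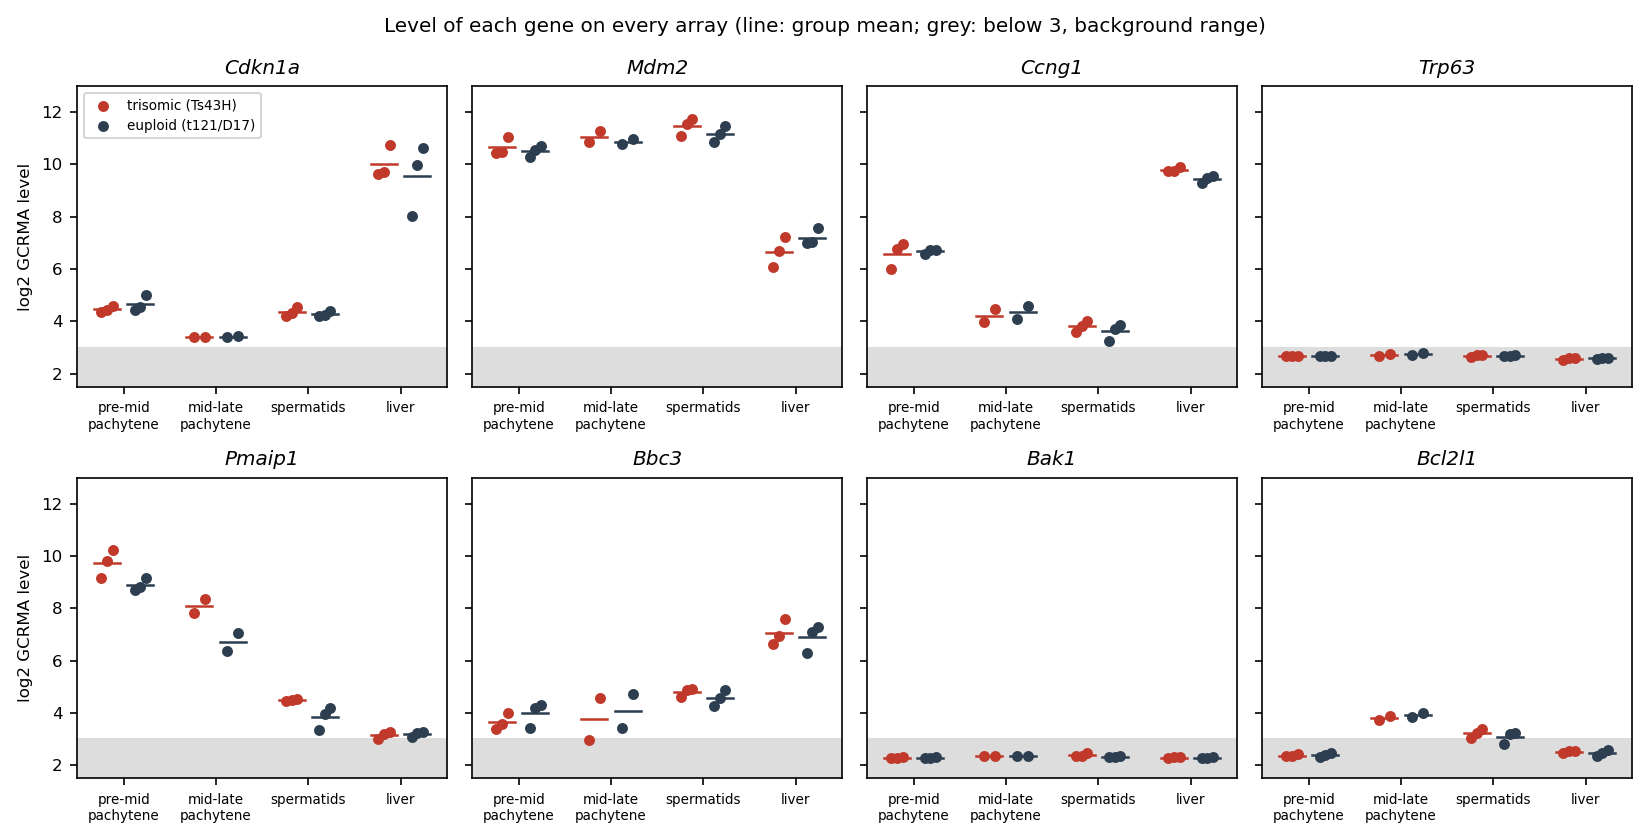
Log2 GCRMA level of the 8 measured genes on each of 22 arrays, by cell type, with trisomic arrays (red) left of euploid arrays (dark) and a line at each group mean. The grey band marks the background range below 3. Pmaip1 stands higher on trisomic than on euploid arrays in all 3 germ cell types, and Bak1 and Trp63 lie in the band on all 22 arrays.

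Pmaip1, on chromosome 18 and so outside the extra segment, was the only member that passed the test of trisomic against euploid males, in 2 of 4 cell types. It encodes a BH3-only protein that neutralises Mcl1. In pre-mid-pachytene spermatocytes its level was 9.80, 10.24 and 9.152 on the trisomic arrays and 8.72, 9.151 and 8.82 on the euploid arrays. All trisomic arrays lay above all euploid arrays, although the lowest trisomic and the highest euploid array nearly touched. The trisomic mean exceeded the euploid mean by 0.84 (SE 0.26, 95% interval 0.30 to 1.38), a fold change of 1.79, with a limma adjusted p of 0.0451. This change was above that of 96.7% of the tested genes.

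In mid-late-pachytene spermatocytes, Pmaip1 measured 8.35 and 7.84 on the trisomic arrays, against 7.07 and 6.36 on the euploid arrays. Both trisomic arrays were higher than both euploid arrays. The difference was 1.38 (SE 0.31, 95% interval 0.72 to 2.04), a fold change of 2.61, with a limma adjusted p of 0.0415. It was above the change of 99.4% of tested genes.

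In spermatids the level of Pmaip1 was 4.49, 4.45 and 4.51 on trisomic arrays and 3.36, 4.17 and 3.97 on euploid arrays. The trisomic arrays lay close together and above every euploid array. The difference of 0.65 (95% interval 0.11 to 1.19), a fold change of 1.57, had an unadjusted limma p of 0.0208 and did not pass after adjustment (adjusted p = 0.384). The euploid mean of 3.83 lay below 4, so the higher trisomic arrays carried Pmaip1 past the filter. Nothing further is read from this test. In liver Pmaip1 was near background in both genotypes, with 3.26, 3.02 and 3.21 on trisomic arrays and 3.26, 3.08 and 3.25 on euploid arrays, and it was below the mean required for a test.

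Pmaip1 was thus 1 of 4 tested members that passed in pre-mid-pachytene spermatocytes and 1 of 3 in mid-late-pachytene spermatocytes, both times higher in trisomic cells. Among all tested genes, 5.88% were called higher in trisomic pre-mid-pachytene cells and 0.569% in mid-late-pachytene cells. The members were chosen with earlier results of these data known, so their counts are not independent of the data. Complete separation with the trisomic arrays on top was common, at 20.8% of tested genes in pre-mid-pachytene cells, 17.7% in mid-late-pachytene cells and 7.45% in spermatids. It occurred in all 3 germ cell types together for 90 of 7164 genes (1.26%), Pmaip1 among them, and 15 of those 90 lie in the extra segment. In spermatids Pmaip1 entered this count through its higher trisomic arrays. No difference of the trisomic Pmaip1 change between germ cell types passed. It was larger in mid-late-pachytene than in pre-mid-pachytene spermatocytes by 0.54 (95% interval -0.30 to 1.39, limma adjusted p = 0.616), and the change in spermatids minus that in mid-late-pachytene cells was -0.73 (95% interval -1.58 to 0.12, limma adjusted p = 0.9997). Spermatids minus pre-mid-pachytene cells gave -0.19 (95% interval -0.95 to 0.57, limma adjusted p = 0.867). In spermatids Pmaip1 passed the filter of these tests only through its higher trisomic arrays. Nothing further is therefore read from either comparison with spermatids.

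Both calls were close to the threshold. In pre-mid-pachytene cells the call was kept in 12 of 29 alternative analyses, and in mid-late-pachytene cells in 8 of 29, while the difference was positive in each of them. Leaving out single arrays ended the pre-mid-pachytene call in 14 of 22 cases. Among the arrays of these cells they were euploid replicate 1 (0.75, limma adjusted p = 0.128), euploid replicate 3 (0.80, 0.131), trisomic replicate 1 (0.80, 0.142) and trisomic replicate 2 (0.58, 0.227), and without trisomic replicate 3 the difference was 1.13. The mid-late-pachytene call of Pmaip1 ended in 15 of 22 cases, among them trisomic replicate 1 (1.13, limma adjusted p = 0.356), trisomic replicate 2 (1.64, 0.0633) and euploid replicate 2 (1.03, 0.181), and without euploid replicate 1 the difference was 1.74. Leaving out arrays of the other cell types, all 6 of liver included, left the Pmaip1 difference as it was and took the adjusted p to at most 0.0563 in pre-mid-pachytene cells and 0.0587 in mid-late-pachytene cells.

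Markers of other germ cell stages were read beside these values, since a sorted fraction can hold neighbouring stages, and on bulk arrays fewer cells of a type and less RNA per cell cannot be told apart. In pre-mid-pachytene cells 2 of 7 round spermatid markers fell in trisomic males, in a background of 4.46% called lower. The list had a median change of -0.29 and a log2 sum of 12.92 to 13.65 on trisomic arrays and 13.36 to 14.17 on euploid arrays. No early meiotic prophase marker passed in the same cells (0 of 7 by limma). An unadjusted p below 0.05 was found for 2 of them, and for 2159 of all 8384 tested genes. The log2 sum of these markers was 16.53 to 16.64 on trisomic arrays and 16.30 to 16.61 on euploid arrays. Spermatogonia markers had array medians of 2.91 to 3.85 on trisomic and 3.87 to 4.86 on euploid arrays, while their log2 sums overlapped. For pachytene spermatocyte markers the log2 sum was 15.94 to 15.99 on trisomic and 15.60 to 15.88 on euploid arrays, while their medians overlapped. No tested gene of these lists passed by limma (0 of 2 and 0 of 7). The 2 mid-late-pachytene euploid arrays stood apart in the median round spermatid marker level, which was 11.03 on replicate 1 and 9.18 on replicate 2, with 9.86 and 9.89 on the trisomic arrays. The lower of the euploid Pmaip1 values came from replicate 2. None of the round spermatid markers was in the background range in these groups. In the pre-mid-pachytene fraction, elongating spermatid markers had array medians of 13.71 to 14.58 on trisomic and 13.83 to 14.26 on euploid arrays. The Sertoli cell log2 sum was 13.01 to 13.42 on trisomic and 13.16 to 13.71 on euploid arrays. The part of these markers in the Pmaip1 differences was not tested.

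**Figure D2:**
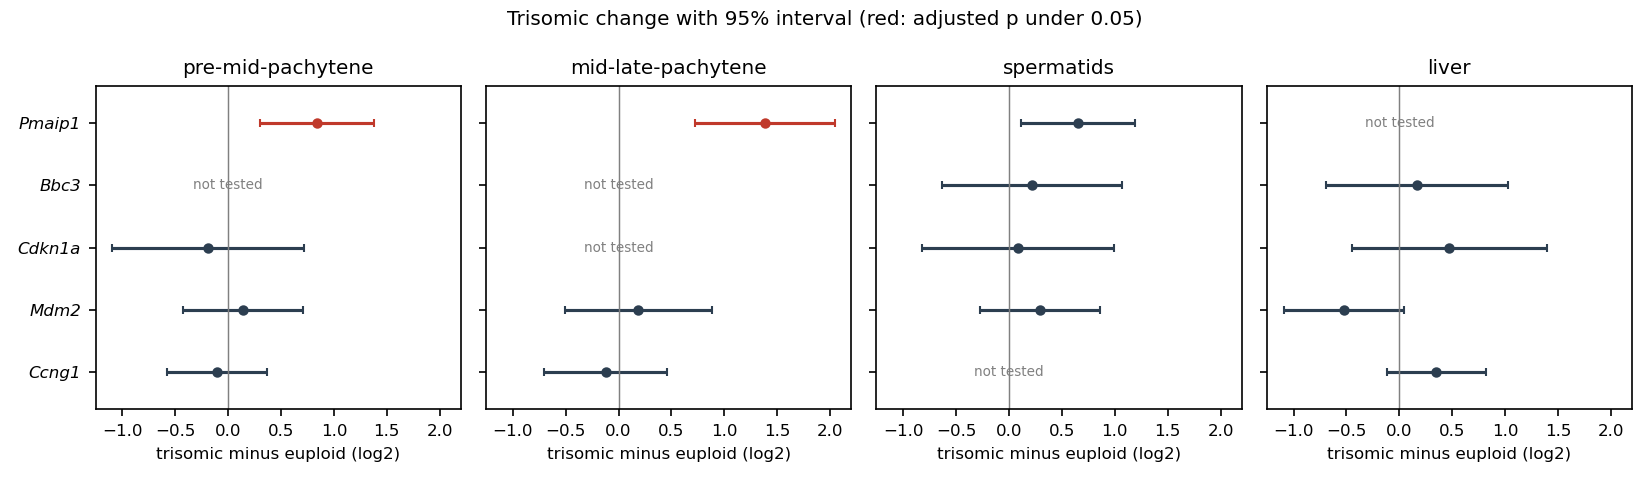
Trisomic minus euploid difference in log2 level, with its 95% interval, for the 5 members tested in at least 1 cell type. Intervals in red belong to an adjusted p below 0.05, and "not tested" marks a mean below 4. The intervals of Pmaip1 lie above 0 in the 3 germ cell types, and those of every other tested member include 0. In spermatids the higher trisomic arrays carried Pmaip1 past the filter.

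Pmaip1 also declined along the germ cell stages. In euploid males it averaged 8.89 ± 0.23 in pre-mid-pachytene cells (SD, n = 3), 6.71 ± 0.50 in mid-late-pachytene cells (SD, n = 2) and 3.83 ± 0.42 in spermatids (SD, n = 3). It fell by 2.18 at the first of these steps (limma adjusted p = 1.26e-06). The spermatid level was close to background, as were the liver levels of 3.16 ± 0.13 in trisomic and 3.197 ± 0.098 in euploid males (SD, n = 3 each), so the size of the further differences is not read. The elongating spermatid and Sertoli cell markers given above were also lower in the mid-late-pachytene than in the pre-mid-pachytene fraction, and their part in the stage differences of Pmaip1 and the other members was not tested. The levels most like Pmaip1 over the 22 arrays were those of Zcrb1 (Pearson's r = 0.99), C920006O11Rik and Angel2 (both 0.98), among 9546 genes, a description that rests on arrays that share 4 cell types.

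Bbc3, the other BH3-only gene among the members, was highest in liver. Its level in liver was 6.96, 7.59 and 6.62 on trisomic arrays and 7.30, 6.29 and 7.09 on euploid arrays, and the groups overlapped. The liver difference was 0.17 (95% interval -0.69 to 1.02, limma adjusted p = 0.895). In spermatids it averaged 4.79 ± 0.17 in trisomic and 4.58 ± 0.32 in euploid males (SD, n = 3 each), a difference of 0.21 (95% interval -0.64 to 1.07, limma adjusted p = 0.9995). In both spermatocyte populations its mean over the 2 genotypes was below 4, and it was not tested there. In euploid males Bbc3 was lower in germ cells than in liver, with a difference of -2.83 in mid-late-pachytene cells (limma adjusted p = 1.24e-05) and -2.31 in spermatids (limma adjusted p = 3.31e-05). Its euploid means of 3.98 in pre-mid-pachytene cells, 4.06 in mid-late-pachytene cells and 4.58 in spermatids were low. No difference between the 3 germ cell types passed, which says little at such levels. Pmvk, Mccc2 and Ptp4a1 had the most similar levels over the 22 arrays (Pearson's r 0.95, 0.95 and 0.94).

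Bak1 and Cdkn1a lie on chromosome 17 within the first 30 Mb, and under this bound the trisomic cells carry 3 copies of each against 2 in euploid cells. Bak1, the pore-forming effector, measured 2.27 to 2.45 on all 22 arrays. These are background values in both genotypes, and no effect of the extra copy on Bak1 could be read from them. The pro-survival gene Bcl2l1 measured 2.31 to 3.98 and was in the background range on 13 of 22 arrays, with its highest values in mid-late-pachytene spermatocytes (3.82 ± 0.11 in trisomic and 3.92 ± 0.09 in euploid cells, SD, n = 2 each). No mean of Bcl2l1 reached the level required for a test.

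Cdkn1a was measurable above all in liver. Its level there was 9.71, 9.63 and 10.73 on trisomic arrays, against 10.64, 9.996 and 8.02 on euploid arrays. The groups overlapped, and euploid replicate 3 stood well below the other two. The difference was 0.47 (SE 0.44, 95% interval -0.45 to 1.39, limma adjusted p = 0.613), which includes both 0 and the 0.58 that 3 copies over 2 would give. Leaving out single arrays moved it between -0.29 and 1.02, the lowest value arising without euploid replicate 3. In pre-mid-pachytene cells Cdkn1a averaged 4.48 ± 0.12 in trisomic and 4.67 ± 0.29 in euploid males, and in spermatids 4.37 ± 0.17 in trisomic and 4.29 ± 0.09 in euploid males (SD, n = 3 each). Neither difference passed (limma adjusted p = 0.838 and 0.9995), and in mid-late-pachytene cells, at 3.41 on both trisomic arrays and 3.42 and 3.43 on the euploid arrays, it was not tested.

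Of the 252 named genes of the segment, 144 to 154 were tested per cell type. Their median trisomic change was 0.24 in pre-mid-pachytene cells, 0.30 in mid-late-pachytene cells, 0.36 in spermatids and 0.67 in liver, against 0.11 for the other tested genes in pre-mid-pachytene cells and -0.02 for those in liver. In liver 68 of its 144 tested genes were called higher and 0 lower. Cdkn1a was not among the called genes of the segment (limma adjusted p = 0.613). The change of Cdkn1a was above that of 44 of the 144 tested segment genes in liver, 17 of 154 in pre-mid-pachytene cells and 24 of 148 in spermatids.

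**Figure D3:**
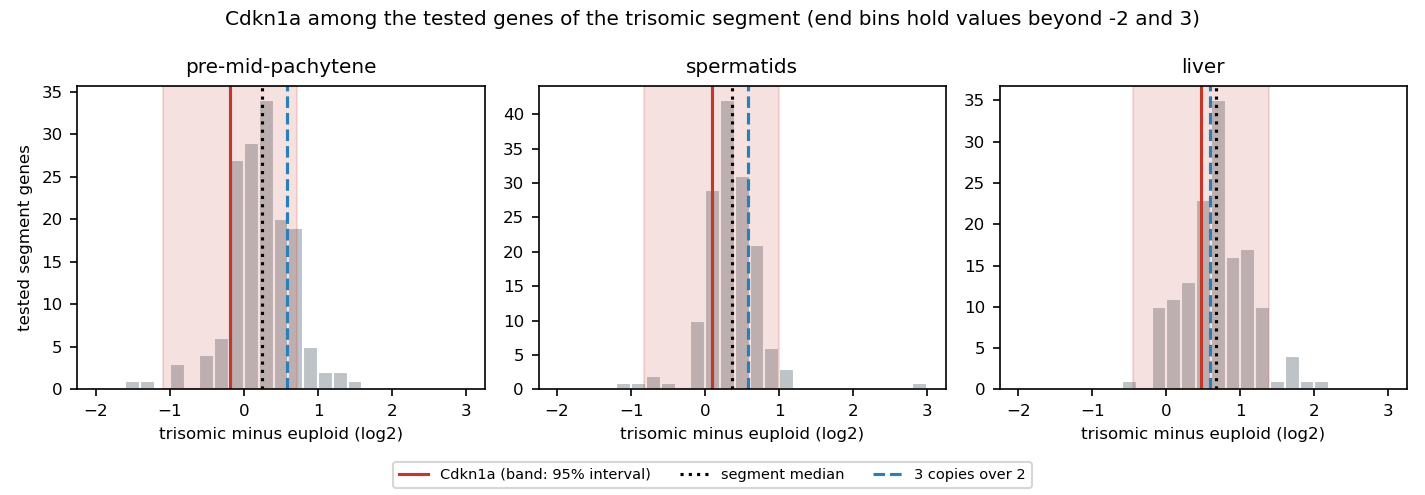
Histograms of the trisomic minus euploid log2 difference of the tested genes of the first 30 Mb of chromosome 17 in pre-mid-pachytene cells, spermatids and liver. The red line and band give Cdkn1a with its 95% interval, the dotted line the segment median and the dashed line the log2 ratio of 3 over 2 copies (0.58). The liver median of 0.67 lies to the right of the germ cell medians, and the Cdkn1a band is wide in all 3 panels.

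Cdkn1a in euploid males was lower in germ cells than in liver, with a difference of -4.88 in pre-mid-pachytene cells (limma adjusted p = 5.08e-09) and -5.27 in spermatids (limma adjusted p = 1.37e-09). In mid-late-pachytene cells its 4 arrays lay within 3.41 to 3.43, near the floor of the scale, and no difference is read for that stage. Nagpa, Mfsd2a and Nr0b2 had the most similar levels over the 22 arrays (Pearson's r = 0.98 each).

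Mdm2 showed the opposite distribution. In euploid males it was higher than in liver by 3.32 in pre-mid-pachytene cells, a fold change of 9.99 (limma adjusted p = 1.28e-09), by 3.68 in mid-late-pachytene cells (limma adjusted p = 1.30e-09) and by 3.97 in spermatids, a fold change of 15.7 (limma adjusted p = 6.98e-11). Spermatids exceeded pre-mid-pachytene cells by 0.65 (95% interval 0.08 to 1.22, limma adjusted p = 0.0327), while neighbouring stages did not differ beyond their error. The Mdm2 stage difference was 0.02 after quantile normalization (limma adjusted p = 0.943), and it did not pass without replicate 1 or 2 of the euploid spermatids or replicate 1 or 3 of the euploid pre-mid-pachytene cells (limma adjusted p = 0.0551 to 0.137). In liver Mdm2 measured 6.10, 6.70 and 7.22 on trisomic arrays and 7.04, 7.003 and 7.55 on euploid arrays. The trisomic arrays included the lowest values, but the groups overlapped. The liver difference was -0.53 (95% interval -1.09 to 0.04, limma adjusted p = 0.273). In germ cells the difference was 0.14 in pre-mid-pachytene cells, 0.19 in mid-late-pachytene cells and 0.29 in spermatids, and the limma adjusted p was 0.798, 0.999 and 0.970. Set against the liver difference, that of spermatids was higher by 0.82 (95% interval 0.02 to 1.61), with an unadjusted p of 0.0441 and a limma adjusted p of 0.365. This was the only 1 of 16 differences of the trisomic change between cell types, over all members, with an unadjusted p below 0.05, and 0 of 16 passed by limma. Such differences passed for 5.21% of all tested genes between pre-mid-pachytene cells and liver, 0.924% between mid-late-pachytene cells and liver and 0.982% between spermatids and liver. Between germ cell types they passed for 0.108% (mid-late-pachytene and pre-mid-pachytene cells), 0.243% (spermatids and pre-mid-pachytene cells) and 0.0131% (spermatids and mid-late-pachytene cells). Pias2, Morn5 and Kctd13 had levels most like those of Mdm2 (Pearson's r = 0.99 each).

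Ccng1 was highest in liver and was lower at the later germ cell stages. Liver arrays measured 9.75, 9.91 and 9.76 in trisomic and 9.57, 9.499 and 9.30 in euploid males. All 3 trisomic arrays lay above the 3 euploid arrays, as did those of 11.8% of tested genes in liver. The difference was 0.35 (95% interval -0.12 to 0.82, limma adjusted p = 0.406). In euploid germ cells Ccng1 averaged 6.68 ± 0.08 in pre-mid-pachytene cells (SD, n = 3), 4.34 ± 0.33 in mid-late-pachytene cells (SD, n = 2) and 3.62 ± 0.32 in spermatids (SD, n = 3). It fell by 2.34 from pre-mid-pachytene to mid-late-pachytene cells (limma adjusted p = 9.35e-08) and was lower in pre-mid-pachytene cells than in liver, with a difference of -2.78 (limma adjusted p = 1.08e-09). The trisomic difference was -0.10 in pre-mid-pachytene cells (95% interval -0.58 to 0.37, limma adjusted p = 0.829) and -0.12 in mid-late-pachytene cells (95% interval -0.70 to 0.46, limma adjusted p = 0.999). Shmt2, Acadm and Fkbp9 were most like Ccng1 over the arrays (Pearson's r = 0.99 each).

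Trp63, on chromosome 16, measured 2.53 to 2.81 on all 22 arrays, in the background range throughout. Over the 8 measured members, 15 tests of trisomic against euploid males could be made, of which the 2 of Pmaip1 in spermatocytes passed and 3 had an unadjusted p below 0.05. In spermatids 0 of 4 tested members passed by limma, in a background of 0.29% called higher and 0.531% called lower. There 1 member had an unadjusted p below 0.05, namely Pmaip1, which its trisomic arrays had carried past the filter. Among all 8283 tested genes 720 had such a p. In liver 0 of 4 passed by limma and 0 had an unadjusted p below 0.05, in a background of 5.77% called higher and 3.78% called lower. The balance of calls over all genes depended on scaling: 56.9% of the pre-mid-pachytene calls and 60.4% of the liver calls were increases, against 71.0% and 39.4% once each array was centred on its median.

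The wider pathway was read from 6 lists of 95 other genes, of which 82 had a probe set. In trisomic pre-mid-pachytene cells 1 of 42 tested list genes rose and 1 fell, in a background of 5.88% called higher and 4.46% called lower. Kat5, the acetyltransferase (Tip60) that modifies p53 and Atm, rose to 8.03 ± 0.25, against 6.66 ± 0.68 in euploid cells (SD, n = 3 each), a difference of 1.37 (95% interval 0.76 to 1.98, limma adjusted p = 0.00819). Polk, a translesion DNA polymerase induced by p53, fell to 6.39 ± 0.09, against 7.03 ± 0.20 in euploid cells (SD, n = 3 each), a difference of -0.64 (95% interval -1.01 to -0.27, limma adjusted p = 0.0285). The Kat5 call was kept in 28 of 29 alternatives and the Polk call in 24 of 29. Polk did not pass without euploid replicate 3, trisomic replicate 1 or trisomic replicate 2 (limma adjusted p = 0.118, 0.109 and 0.0911).

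Apoptosis genes of trisomic pre-mid-pachytene cells had differences that did not pass. Diablo, which releases caspases from their inhibitors, measured 13.95 ± 0.07 in trisomic and 13.58 ± 0.01 in euploid cells (SD, n = 3 each). Bad, a BH3-only gene, measured 9.03 ± 0.14 in trisomic and 8.67 ± 0.04 in euploid cells (SD, n = 3 each). Bnip3l, which acts in mitophagy, measured 9.41 ± 0.11 in trisomic and 9.05 ± 0.08 in euploid cells (SD, n = 3 each). All trisomic arrays were above all euploid arrays for the 3 genes, as they were for 20.8% of all tested genes in these cells. The limma adjusted p was 0.167 for Diablo, 0.140 for Bad and 0.168 for Bnip3l. Mcl1, the survival factor that the Pmaip1 protein binds, measured 12.05 ± 0.21 in trisomic and 12.18 ± 0.41 in euploid cells (SD, n = 3 each), with a difference of -0.14 and a limma adjusted p of 0.705. Cyct, the testis form of cytochrome c, differed by 0.31 (limma adjusted p = 0.497). Among CDK inhibitors Cdkn2c differed by 0.53 (95% interval 0.01 to 1.05, limma adjusted p = 0.187) and Cdkn1c by -0.32 (limma adjusted p = 0.681).

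In mid-late-pachytene cells 0 of 38 tested list genes passed by limma, with 2 at an unadjusted p below 0.05, and in spermatids 0 of 38, with 4 at an unadjusted p below 0.05. The background was 0.569% called higher and 0.396% called lower in mid-late-pachytene cells, and 0.29% and 0.531% in spermatids. An unadjusted p below 0.05 was found for 619 of all 8085 tested genes in mid-late-pachytene cells and 720 of 8283 in spermatids. Mcl1 averaged 11.20 ± 0.09 in trisomic and 11.57 ± 0.08 in euploid mid-late-pachytene cells (SD, n = 2 each), a difference of -0.37 (limma adjusted p = 0.904). The p53 targets Zmat3 and Rps27l differed by 0.11 and 0.33 in the same cells, and the p53 regulators Trim24 and Sirt1 by 0.05 and -0.08, with limma adjusted p of 0.885 or more. In spermatids Polk differed by -0.49 (95% interval -0.86 to -0.12, limma adjusted p = 0.295) and Ppm1d, the phosphatase that switches p53 signalling off, by 0.09 (limma adjusted p = 0.9995).

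In trisomic liver 4 of 51 tested list genes rose and 3 fell, in a background of 5.77% of all tested genes called higher and 3.78% called lower, so the counts were near the background. Plk3, a stress-induced kinase, fell to 6.15 ± 0.60, against 8.37 ± 1.29 in euploid liver (SD, n = 3 each, as for the next genes), a difference of -2.22 (95% interval -3.07 to -1.37, limma adjusted p = 0.00160). Bik, a BH3-only gene, fell to 3.47 ± 0.33, against 5.04 ± 0.46 in euploid liver, a difference of -1.57 (limma adjusted p = 5.32e-05). Its trisomic mean lay below 4 and near background, so the higher euploid arrays carried Bik past the filter. The size of its difference is therefore not read. Cflar, which encodes the caspase-8 inhibitor c-FLIP, fell to 8.81 ± 0.37, against 9.88 ± 0.41 in euploid liver, a difference of -1.07 (limma adjusted p = 0.00436). These 3 genes include an activator (Bik) and an inhibitor (Cflar) of apoptosis, and each call was lost in 1 alternative. Markers of other cells differed in liver as well. The 1 tested red blood cell marker fell by 1.54. The log2 sum over the 2 markers with a probe set was 10.55 to 11.55 on trisomic and 12.27 to 12.96 on euploid arrays. Of 2 tested stromal markers 1 rose, with a log2 sum over 5 markers of 8.24 to 9.04 on trisomic and 7.27 to 7.34 on euploid arrays. Their part in the liver differences was not tested.

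The increases in trisomic liver were smaller. Birc3, an inhibitor of apoptosis protein, rose by 0.67 (95% interval 0.31 to 1.03, limma adjusted p = 0.0179), and Ep300, a coactivator that acetylates p53, rose by 0.58 (limma adjusted p = 0.0328). Rps27l and Igfbp3, both listed as p53 targets, rose by 0.53 (limma adjusted p = 0.0412) and 0.52 (limma adjusted p = 0.0184). The Rps27l call was kept in 15 of 29 alternatives, Ep300 in 22, Igfbp3 in 24 and Birc3 in 25. For Rps27l the difference was smallest without euploid replicate 3 (0.37, limma adjusted p = 0.195), and for Igfbp3 without euploid replicate 1 (0.36, limma adjusted p = 0.0686). Birc3 did not pass without euploid replicate 1 or trisomic replicate 2 (limma adjusted p = 0.0711 and 0.0882). Ep300 did not pass without euploid replicate 1 or 3 or trisomic replicate 1 or 3 (limma adjusted p = 0.0540 to 0.128).

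**Figure D4:**
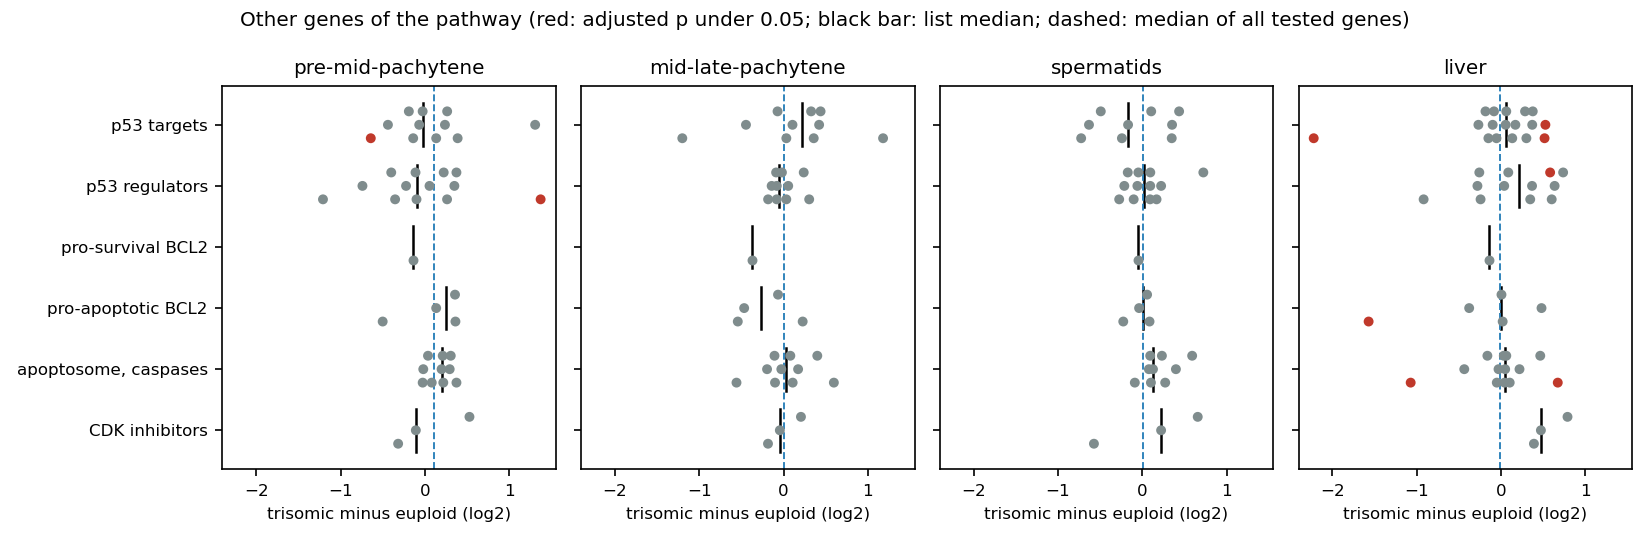
Trisomic minus euploid log2 difference of each tested gene of the 6 pathway lists in the 4 cell types. Red points passed at an adjusted p below 0.05, black bars are list medians and the dashed line is the median of all tested genes. Red points are 2 in pre-mid-pachytene cells, 0 in mid-late-pachytene cells and spermatids, and 7 in liver, where Plk3 lies farthest to the left.

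No list held more than 3 called genes in any cell type. The p53 target list had a median change of -0.03 over 11 tested genes in pre-mid-pachytene cells, 0.22 over 10 in mid-late-pachytene cells, -0.17 over 9 in spermatids and 0.06 over 17 in liver. The medians of all tested genes were 0.11 in pre-mid-pachytene cells, 0.00344 in mid-late-pachytene cells, 0.013 in spermatids and -0.0134 in liver. The list of apoptosome and caspase genes had medians of 0.20 in pre-mid-pachytene cells, 0.03 in mid-late-pachytene cells, 0.13 in spermatids and 0.04 in liver, and its genes other than Cflar and Birc3 did not pass in any cell type.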

How the data were processed

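Normalized values of 22 arrays were used as deposited: log2 levels of probe sets, deposited after the authors ran GCRMA, per the submitters' processing notes (version not given in the sources used here), and the arrays normalized together are not stated. From 20 to 30 ng of total RNA had been labelled in 2 cycles, per the labels' protocols. The table held 16539 probe sets, 15780 with 1 gene symbol and 759 without, which were not used. Array medians ran from 4.10 to 4.69, and the number of arrays limits the precision.

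limma 3.58.1 (R 4.3.3) fitted the 8 group means on all 22 arrays. Trisomic was tested against euploid in each cell type, for genes averaging at least 4 there, two-sided, with Benjamini-Hochberg adjustment at 0.05. Cell types were compared in euploid males, and differences of the trisomic change as interaction terms, in the same fit. The method was tested on simulated data. Python 3.11.15 was used for summaries.

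The 10 genes and the lists were chosen with earlier results of these data known. Every member was named, and per list and cell type up to 4 genes that passed, or up to 2 with the highest mean where none did. The text omits some of the latter. Alternatives were no filter, a mean of at least 6, quantile normalization, centred arrays, a trended robust spread, the compared arrays alone, the replicate number as a block, and each array left out. Promoter windows came from RefSeq (GRCm38.p6).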

Additional observations from a re-analysis of the deposited data

How the results depend on the processing

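No called direction reversed, although differences that did not pass could cross 0. Over the members and named genes, 1539 of 1617 alternative values of trisomic against euploid kept their call, 77 lost it and 1 gained it; for cell types this was 754 of 765, with 10 lost and 1 gained, and all 456 interaction values stayed uncalled. Increases called in pre-mid-pachytene cells numbered 820 with centred arrays and 0 with the compared arrays alone, which gave 4 decreases; leaving out arrays gave 123 to 778 and 127 to 517. Members called higher there were 0 without a filter, with a trended robust spread and with the compared arrays alone, and 0 to 1 without single arrays. In mid-late-pachytene cells increases numbered 4 at a mean of at least 6 and 0 with the compared arrays alone, decreases 5 and 0, and 17 to 155 and 22 to 113 without single arrays; members called higher were 0 without a filter, at a mean of at least 6, and with quantile normalization, centred arrays, a trended robust spread or the compared arrays alone, and 0 to 1 without single arrays. In spermatids increases were 41 without a filter, 8 at a mean of at least 6 and 1 with the compared arrays alone, decreases 69, 14 and 0, and 15 to 36 and 32 to 60 without single arrays; members called were 0 to 0. In liver the compared arrays alone gave 14 increases and 5 decreases and centred arrays 522 decreases, with 360 to 532 and 224 to 401 without single arrays. Centring moved the median change of all genes to -0.14 in liver and 0.20 in pre-mid-pachytene cells, where Pmaip1 was then 0.92 (limma adjusted p = 0.0282). The cause of these moves was not tested, beyond that the compared arrays alone leave fewer samples for the spread.

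Same-numbered trisomic and euploid arrays deviated together with correlations of -0.12 to 0.35, so the numbers were not taken as pairs. With the replicate block the limma adjusted p of Pmaip1 was 0.0279 in pre-mid-pachytene cells, 0.0312 in mid-late-pachytene cells and 0.199 in spermatids, and the called increases were 461 in pre-mid-pachytene cells, 32 in mid-late-pachytene cells, 20 in spermatids and 457 in liver. It ended the calls of Polk (0.0524), Rps27l (0.0845) and Ep300 (0.0841).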
